A study of Mus musculus with 6 samples.

Results

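The genes described here encode the voltage-gated sodium and calcium channels of the mouse, measured in RNA from the cerebral cortex. They were the protein-coding rows whose symbol is Scn, a number and a or b, or starts with Cacna or Cacnb, together with Cacng1, Cacng4, Cacng5, Cacng6 and Cacng7. The rule took no measured value and found 37 of the 54532 genes of the table, 14 for sodium channels and 23 for calcium channels. Of these, 27 had a mean of at least 0.5 FPKM (fragments scaled by gene length and by library depth) over the 6 libraries and were tested. The other 10 lay under that filter and are given by their reads.

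The 3 wild-type (WT) libraries and the 3 libraries labelled Fam69c KO, a knockout (-/-) of the gene for a putative kinase of the secretory pathway, came from mice aged 12 months. The labels give no strain, sex, breeding scheme or description of the mutant allele, and no treatment. Whether the libraries came from different mice is not said, so p-values measure only the spread between these libraries, which may be technical. Library depth ran from 30935326 to 35065884 reads, recovered from the deposited values.

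Voltage-gated sodium channels open when the membrane depolarises and carry the rising phase of the action potential. Each is a large alpha subunit that forms the pore, gates and inactivates, with small beta subunits of 1 membrane pass that tune gating and adhere to other cells. Voltage-gated calcium channels turn depolarisation into calcium entry that releases transmitter, drives dendritic and burst firing, and signals to the nucleus. Their pore is an alpha1 subunit, and the cytoplasmic beta and the extracellular alpha2delta subunits bring it to the membrane. In the cortex the gamma genes act mainly on AMPA receptor trafficking.

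RNA of the targeted gene did not check the labels. Fam69c read 2.03, 1.57 and 2.08 FPKM in WT replicates 1, 2 and 3, and 1.54, 1.84 and 1.42 FPKM in replicates 1, 2 and 3 labelled Fam69c KO. The groups overlapped, at a log2 fold change of -0.19 (standard error 0.13, limma, Benjamini-Hochberg adjusted p = 0.999), so every direction is between libraries as labelled. Cortical markers were abundant in every library, led by Camk2a, Sst, Slc1a2 and Mbp. The summed FPKM over 8 excitatory neuron markers ran from 850 to 897, over 8 inhibitory neuron markers from 477 to 564, over 6 astrocyte markers from 308 to 339 and over 7 oligodendrocyte markers from 618 to 826. It ran from 96.2 to 123 over 6 oligodendrocyte precursor markers, from 96.2 to 117 over 6 microglia markers and from 50.2 to 59.2 over 6 endothelial and mural markers. Thalamic (12.8 to 16.4 over 6), skeletal muscle (8.92 to 10.7 over 6) and choroid plexus markers (3.52 to 10.2 over 5) were low, and led by Ramp3, Acta1 and Ttr. The choroid plexus sums did not overlap, at 3.52 to 4.61 in WT and 4.66 to 10.2 in the libraries labelled Fam69c KO. Ttr made up most of each sum and differed by 1.10 log2 units (limma, unadjusted p = 0.010, adjusted p = 0.999). The other 4 markers lay under the filter and went both ways. Folr1 and Kl had lower means in the libraries labelled Fam69c KO (0.150 and 0.295 FPKM) than in WT (0.190 and 0.317). Clic6 and Kcnj13 had higher means there (0.511 and 0.376 FPKM) than in WT (0.467 and 0.316). The part of the choroid plexus markers in the channel values was not tested. Olig1, C1qa and Cldn5 led the precursor, microglia and vascular lists. Striatal projection neuron markers were uneven, and their values are given beside the channel genes that moved with them.

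Most sodium channel alpha RNA of the cortex was carried by 3 genes. Scn8a, Scn2a and Scn1a held 35.2% ± 0.601, 33.6% ± 1.52 and 25.0% ± 0.638 of the summed alpha FPKM in WT, and 36.1% ± 1.29, 33.4% ± 1.52 and 24.4% ± 1.87 in the libraries labelled Fam69c KO (mean and SD, n = 3 each). By reads, which favour the longer gene, the WT shares were 41.7%, 32.2% and 20.9%. The summed alpha level lay between 69.2 and 74.4 FPKM over the 6 libraries, at 73.5 ± 1.15 in WT and 72.6 ± 2.97 in the libraries labelled Fam69c KO.

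Scn8a supplies the main channel of the distal initial segment and of nodes of Ranvier. It read 25.8, 26.1 and 25.7 FPKM in WT and 26.8, 25.9 and 25.8 FPKM in the libraries labelled Fam69c KO. The highest and the lowest library differed by 1.05-fold, and its spread within groups was smaller than that of all but 0.854% of the genes tested. Scn2a, whose channel serves excitatory neurons and unmyelinated axons, read 23.4, 24.5 and 26.2 FPKM in WT and 23.8, 26.1 and 22.8 FPKM in the libraries labelled Fam69c KO, with overlapping groups. Scn1a, prominent in fast-spiking interneurons that contain parvalbumin, read 18.0, 19.0 and 18.1 FPKM in WT and 19.7, 17.2 and 16.3 FPKM in the libraries labelled Fam69c KO. For Scn1a the libraries labelled Fam69c KO held both the highest and the lowest value. Scn3a, best known from the developing brain, was much lower at 2.48 to 3.46 FPKM. Scn7a, which encodes a channel-like sodium sensor, read 0.750 to 1.14 FPKM.

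**Figure D1:**
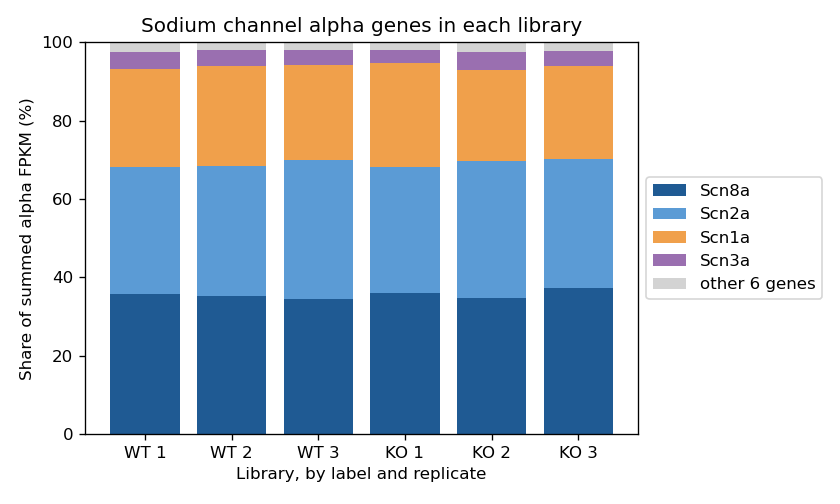
Share of the summed FPKM of the 10 sodium channel alpha genes (y axis, %) in each library (x axis, by label and replicate), with the 6 least abundant genes pooled in grey. Scn8a, Scn2a and Scn1a fill most of every bar, and the share of Scn8a stays between 34.6% and 37.3%.

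Some alpha transcripts resemble each other closely, which bears on how reads were assigned. Over whole GENCODE M21 transcripts, 4.03% of the 50-base words of Scn1a, 5.62% of those of Scn2a and 6.49% of those of Scn3a also occurred in another channel gene, against 0.0374% for Scn8a. The share was 4.04% for Scn9a. The sources used here do not state how reads with several matches were handled. Some reads of Scn1a, Scn2a, Scn3a and Scn9a may thus not be separated. Scn3a shared most with the more abundant Scn2a, and Scn9a with the more abundant Scn3a. How much of the Scn3a and Scn9a levels such reads make up was not tested, and it need not be small.

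A row of 5 of these genes lies on mouse chromosome 2 (mm10, 65457118 to 66784914) in the order Scn3a, Scn2a, Scn1a, Scn9a and Scn7a. Their levels there ran from 0.291 ± 0.0608 FPKM for Scn9a in WT to 24.7 ± 1.42 FPKM for Scn2a (SD, n = 3). Scn9a, a sodium channel gene of sensory and sympathetic neurons, lay under the filter with 102 to 156 reads. It shares 180 exon bases with Gm13629 on the other strand, which read 2.18 to 3.91 FPKM, and with strand handling unstated the reads in those bases, 1.41% of its exon length, cannot be told apart. Scn10a and Scn11a of sensory neurons are neighbours on chromosome 9 (119608456 to 119825456). Both lay under the filter, with 8 to 31 and 1 to 12 reads. Scn4a, the skeletal muscle alpha gene on chromosome 11, had 0 reads in each WT library and at most 3 in a library labelled Fam69c KO. A count of 0 reads allows up to 3 reads, at most 0.0139 FPKM of Scn4a in a library, counting error only.

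Of the sodium channel beta genes, Scn2b, whose product is linked to alpha by a disulfide bond, read 79.9, 77.0 and 67.9 FPKM in WT and 80.4, 79.5 and 73.0 FPKM in the libraries labelled Fam69c KO. Scn3b read 15.5 to 20.2 FPKM.

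Scn4b, another beta gene, was the least steady of the 27 tested channel genes. Its product is the other disulfide-linked beta subunit, known for its part in resurgent current and for high levels in the striatum. It read 79.4 and 78.5 FPKM in WT replicates 1 and 2 but 36.7 FPKM in WT replicate 3, and 57.2, 80.1 and 66.1 FPKM in replicates 1, 2 and 3 labelled Fam69c KO. WT replicate 3 was lowest and replicate 1 labelled Fam69c KO next, so the spread was within groups. Its SD within groups, 0.48 log2 units, stood at percentile 95.9 of the genes tested.

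Striatal markers moved in the same libraries. Over 12 markers of striatal projection neurons, led by Penk, all 12 tested and none at 0 in every library, the summed FPKM was 552, 559 and 198 in WT and 270, 511 and 439 in the libraries labelled Fam69c KO. WT replicate 3 and replicate 1 labelled Fam69c KO were thus lowest in the markers and in Scn4b. With the mean log2 level of the markers as a covariate, the standard error of the Scn4b group difference fell from 0.30 to 0.085 log2 units, and Scn4b rose by 0.64 log2 units per log2 unit of the markers. The group difference itself was 0.13 without the covariate and 0.12 with it. In bulk tissue, fewer cells of a type and less RNA per cell cannot be told apart, and what sets the marker level of a library was not tested.

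The same pattern held for a gamma gene on another chromosome. Cacng4 (chromosome 11, 107732357 to 107794557) read 11.8, 12.6 and 7.13 FPKM in WT and 9.23, 12.3 and 10.996 FPKM in the libraries labelled Fam69c KO. WT replicate 3 was again lowest and replicate 1 labelled Fam69c KO next. Its standard error fell from 0.21 to 0.056 log2 units with the marker covariate, at a slope of 0.46. Slopes of the other 25 tested channel genes lay between -0.25 for Cacna1g and 0.24 for Cacng5, and that of Scn8a was -0.0064. These slopes rest on 6 libraries and are given as descriptions.

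**Figure D2:**
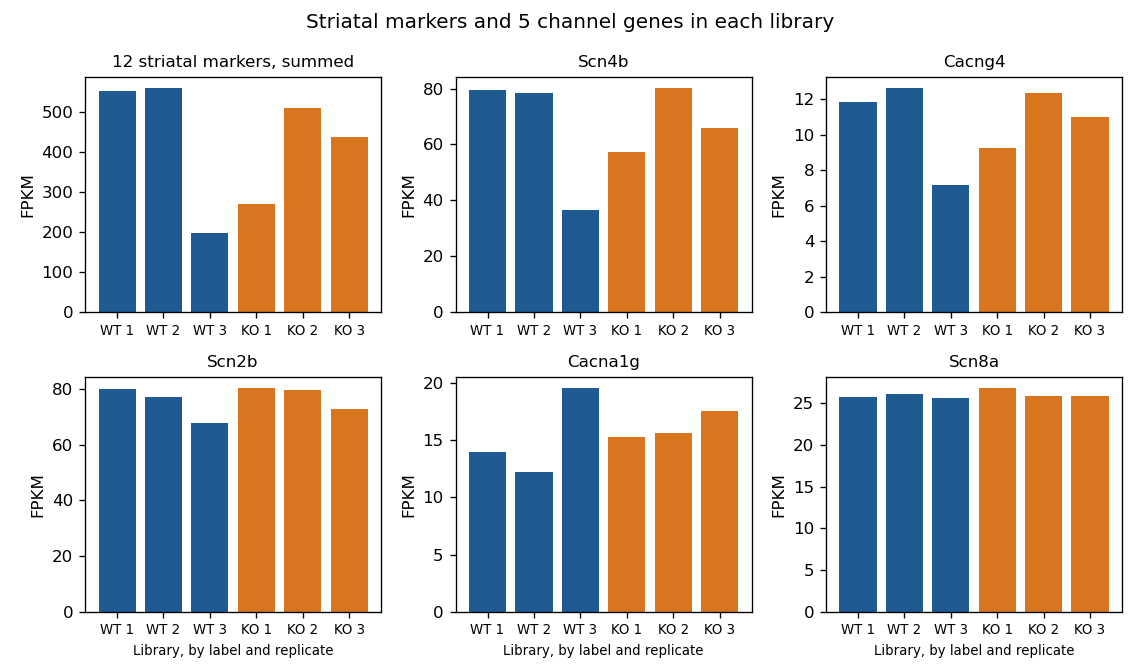
FPKM (y axes, from 0) of 12 summed striatal markers and of 5 channel genes in each library (x axes, by label and replicate, WT in blue and libraries labelled Fam69c KO in orange). Scn4b and Cacng4 are lowest in WT replicate 3, where the markers sum to 198 FPKM, Cacna1g is highest there at 19.6 FPKM, and Scn8a is level.

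Scn4b has a close neighbour with a smaller spread. Scn2b ends 8324 bases before Scn4b starts on chromosome 9, on the same strand, and its highest and lowest libraries differed by 1.18-fold against 2.18-fold for Scn4b. Scn2b too was lowest in WT replicate 3, at 67.9 FPKM. Unlike Scn4b it was highest in replicate 1 labelled Fam69c KO, at 80.4 FPKM. The 250 bases before the RefSeq start of each gene (GRCm38.p6, plus strand) are shown to compare the pair. The RefSeq start lies 94 bases after the deposited gene start for Scn2b and 229 bases after it for Scn4b. Part of the Scn2b window and most of the Scn4b window thus lie inside the deposited gene. Capitals mark matches on either strand to the TATA box (letters TATAAA), the CCAAT box (letters CCAAT) and the GC box (letters GGGCGG), whose letters do not overlap here.
Scn2b chr9:45117626-45117875: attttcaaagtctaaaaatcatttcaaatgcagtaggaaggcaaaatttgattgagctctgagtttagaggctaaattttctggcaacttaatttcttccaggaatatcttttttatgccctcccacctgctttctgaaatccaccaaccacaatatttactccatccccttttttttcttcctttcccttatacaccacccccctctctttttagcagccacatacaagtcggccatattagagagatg
Scn4b chr9:45138374-45138623: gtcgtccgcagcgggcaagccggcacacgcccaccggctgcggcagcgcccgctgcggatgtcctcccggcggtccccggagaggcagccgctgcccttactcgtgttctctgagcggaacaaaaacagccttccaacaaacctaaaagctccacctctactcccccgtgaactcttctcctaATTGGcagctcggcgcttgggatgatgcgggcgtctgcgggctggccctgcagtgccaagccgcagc
The Scn2b window held 38.4% G and C and 1 CpG, and the Scn4b window 66.0% and 23 CpG. The medians over 32817 RefSeq promoters of that length were 52.4% and 6 CpG. Scn4b held 1 CCAAT match, which 33.8% of those promoters also hold, and Scn2b held no match to the 3 motifs. TATAAA was found in 12.4% and GGGCGG in 32.7% of the promoters. Of the 37 channel genes, 27 matched the promoter table by symbol.

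Among calcium channel pore genes, those of transmitter release led. The P/Q-, N- and R-type genes summed to 50.9 ± 2.53 FPKM in WT and 51.7 ± 2.13 in the libraries labelled Fam69c KO. Cacna1a, the P/Q-type gene of fast synapses, made up 48.8% ± 1.60 of this sum in WT. It read 23.4, 24.1 and 27.2 FPKM in WT and 24.5, 24.3 and 25.4 FPKM in the libraries labelled Fam69c KO, with WT holding both extremes. Cacna1b, the N-type gene of presynaptic terminals, read 14.7 to 16.5 FPKM, and Cacna1e, the R-type gene, 10.1 to 12.4 FPKM. Cacna1e has the longest model of the 37 genes, 25228 bases, and by reads its WT share was 38.3%, near the 40.1% of Cacna1a. FPKM levels of these genes thus depend on the exons counted in their length.

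The low-threshold T-type genes, which support burst firing, summed to 41.4 ± 3.47 FPKM in WT and 43.2 ± 2.86 in the libraries labelled Fam69c KO. Cacna1i read 18.9, 18.7 and 18.4 FPKM in WT and 18.8, 18.6 and 20.6 FPKM in the libraries labelled Fam69c KO, with replicate 3 of the latter highest. Cacna1g read 13.998, 12.2 and 19.6 FPKM in WT and 15.3, 15.7 and 17.6 FPKM in the libraries labelled Fam69c KO. WT replicate 3, lowest in Scn4b, was highest in Cacna1g, and the Cacna1g values labelled Fam69c KO lay within the WT range. Without WT replicate 3 the log2 fold change of Cacna1g went from 0.11 to 0.30 (limma adjusted p = 0.728). Cacna1h read 6.33 to 8.54 FPKM.

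The L-type genes, which couple activity to gene expression, summed to only 9.39 ± 0.913 FPKM in WT and 9.78 ± 1.06 in the libraries labelled Fam69c KO. Cacna1d read 4.89, 4.52 and 5.83 FPKM in WT and 4.58, 5.45 and 5.67 FPKM in the libraries labelled Fam69c KO. Cacna1c read 4.11, 3.98 and 4.38 FPKM in WT and 3.82, 4.77 and 4.47 FPKM in the libraries labelled Fam69c KO, so both genes overlapped between groups. Per length Cacna1d was above Cacna1c in every library, with a WT share of 54.0%, while by reads Cacna1c held 57.5%. Cacna1s of skeletal muscle (7 to 24 reads) and Cacna1f of the retina (27 to 45 reads) lay under the filter.

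Among accessory subunits, the alpha2delta genes, of which Cacna2d1 and Cacna2d2 encode binding sites of gabapentin, summed to 38.3 ± 2.90 FPKM in WT and 39.2 ± 1.17 in the libraries labelled Fam69c KO. Cacna2d1 read 17.8 FPKM in each WT library and 17.7, 19.3 and 16.8 FPKM in the libraries labelled Fam69c KO, which lay on both sides of WT. Cacna2d3 read 14.7, 15.7 and 11.6 FPKM in WT and 13.9, 14.4 and 15.6 FPKM in the libraries labelled Fam69c KO. WT replicate 3 was lowest for Cacna2d3 and also for Cacna2d2, which read 5.41 to 7.08 FPKM. Cacna2d4, a gene of the retina, had 49 to 68 reads and lay under the filter. Its start lies 40107 bases from the start of Cacna1c, which is on the other strand.

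The beta genes, whose products bind the alpha1 loop and bring the channel to the surface, summed to 150 ± 2.81 FPKM in WT and 147 ± 2.34 in the libraries labelled Fam69c KO. Cacnb3 read 81.8, 75.9 and 82.8 FPKM in WT and 73.9, 75.6 and 79.9 FPKM in the libraries labelled Fam69c KO. Cacnb1 was steadier, at 41.3, 40.5 and 40.1 FPKM in WT and 39.1, 41.1 and 42.0 FPKM in the libraries labelled Fam69c KO. In both genes the groups overlapped. Cacnb4, the beta gene mutated in the lethargic mouse, read 23.8 to 28.2 FPKM, and Cacnb2 2.92 to 3.62 FPKM. Cacnb4 shares 1433 exon bases with A430018G15Rik on the other strand, which read at most 0.0861 FPKM. Other tested genes overlap opposite-strand genes that were read more. Cacna1d shares 589 exon bases (4.67%) with Chdh, at 0.912 to 1.42 FPKM. Cacna1a shares 435 (3.81%) with Gm16183, at 1.39 to 4.15 FPKM, and Cacnb1 80 (1.77%) with Gm11629, at 0.917 to 2.04 FPKM. With strand handling unstated, the reads in these bases cannot be told apart.

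The gamma class held only the 5 gamma genes of the rule. Cacng2, Cacng3 and Cacng8 lie outside it and were read among the calcium channel partners. Of the 5, Cacng7, an AMPA receptor regulator, led at 82.4, 85.7 and 81.0 FPKM in WT. It read 83.8, 73.0 and 79.7 FPKM in the libraries labelled Fam69c KO. Replicate 2 labelled Fam69c KO was lowest for Cacng7. Cacng5 read 2.45, 2.01 and 1.56 FPKM in WT and 1.56, 1.85 and 1.75 FPKM in the libraries labelled Fam69c KO, from 199 to 293 reads. Of the genes under the filter, Cacng6 had 15 to 39 reads, and Cacng1, the gamma subunit of skeletal muscle, 1 to 21 reads with the highest in WT replicate 2. Cacng1 lies 15834 bases from Cacng4, which was read 846 to 1471 times.

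**Figure D3:**
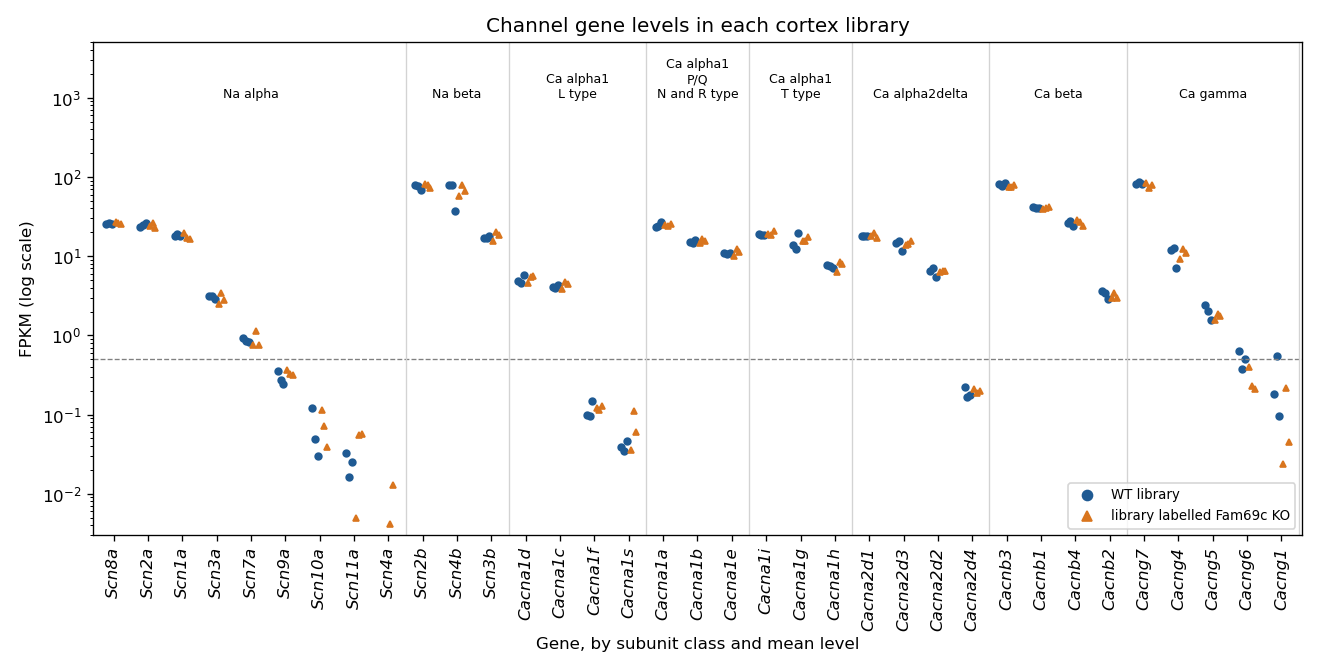
FPKM on a log scale (y axis) of 35 of the 37 channel genes (x axis, by subunit class and mean level) in 3 WT libraries (blue circles) and 3 libraries labelled Fam69c KO (orange triangles). Values of 0, found for Scn4a in 4 libraries, are not drawn, and the dashed line marks the filter at 0.5 FPKM. The scale runs from Cacng7 at up to 85.7 FPKM to genes read a few times, and the symbols of the groups mix in each of the 26 tested genes drawn.

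No channel gene was called different between the groups. Of the 27 tested, 0 passed an adjusted p of 0.05 in limma, and 0.0% of all 15694 genes tested did. At an unadjusted p under 0.05 there were 0 channel genes, where 3.82% of all genes tested lay (1.63% higher and 2.19% lower in the libraries labelled Fam69c KO), and the smallest unadjusted p was 0.260, for Cacng7. The groups overlapped in all 27 channel genes, where they did not overlap in 8.87% of all genes tested (4.17% with the libraries labelled Fam69c KO above and 4.7% below). With only 27 genes, these counts of 0 do not set the channels apart. By voom on the recovered reads 0 of 27 passed, with 0 at an unadjusted p under 0.05.

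The fold changes were small and of both signs. In the libraries labelled Fam69c KO, 18 log2 fold changes were above 0 and 9 below. Over all genes tested, 7538 were above 0 and 8156 below. The median was 0.019 over the channel genes against -0.0042 over all genes tested. Channel gene values ran from -0.16 for Cacng5 (standard error 0.14) to 0.13 for Scn4b (standard error 0.30). Both ends rested on single libraries. Cacng5 went to -0.039 without WT replicate 1 and to -0.30 without WT replicate 3, and Scn4b to 0.32 and -0.23 without the same libraries. The median was 0.057 over the 4 sodium beta genes and -0.029 over 5 tested sodium alpha genes. It was 0.049 over 2 tested L-type, 0.026 over 3 P/Q-, N- and R-type and 0.050 over 3 T-type genes. Over 3 tested alpha2delta genes it was 0.019, over 4 calcium beta genes -0.032 and over 3 tested gamma genes -0.076.

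The intervals say how large a difference the libraries could hold. For 14 of 27 channel genes the 95% interval lay within 1.2-fold in either direction on the scale of FPKM + 0.5, and for 26 of 27 within 1.5-fold, against 44.2% and 87.3% of all genes tested. The exception at 1.5-fold was Scn4b, with an interval from -0.58 to 0.85 log2 units. Scn8a had an interval from -0.081 to 0.115, Cacnb1 from -0.11 to 0.11 and Cacna1i from -0.074 to 0.175. For genes of few FPKM, such as Scn7a, the added 0.5 narrows the interval.

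**Figure D4:**
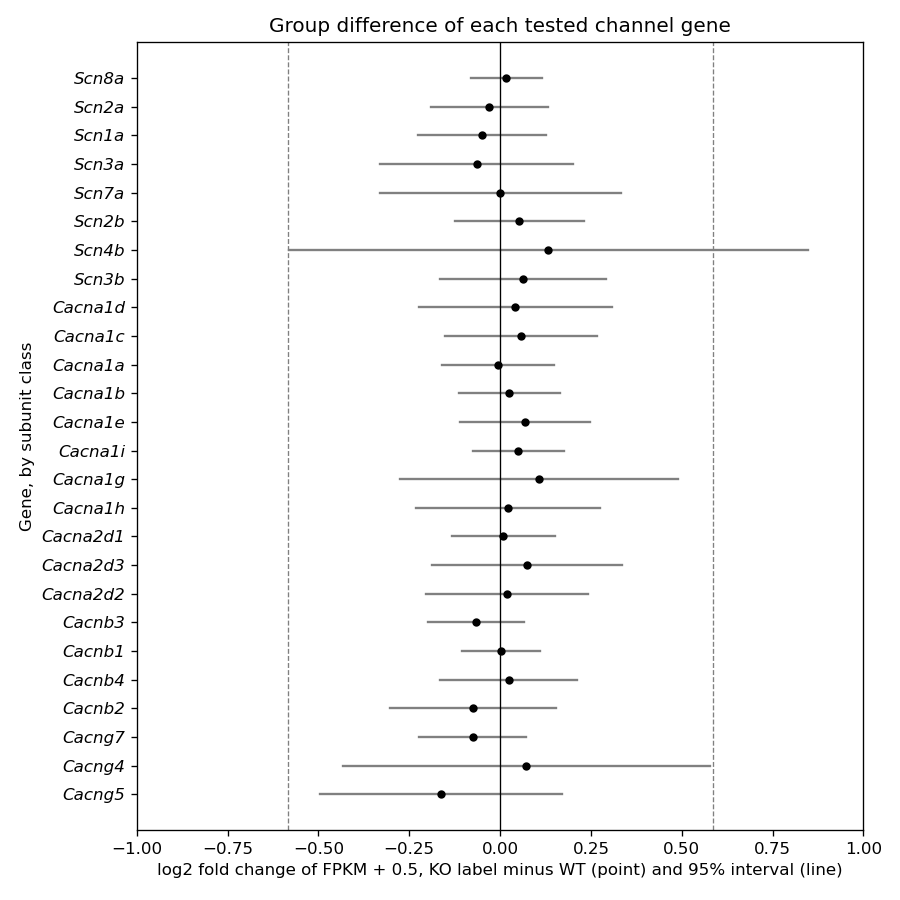
Log2 fold change of FPKM + 0.5 in the libraries labelled Fam69c KO against WT (x axis, point) with its 95% interval (line) for 26 of the 27 tested channel genes (y axis, by subunit class), n = 3 each. Every interval holds 0, and that of Scn4b, from -0.58 to 0.85, crosses the dashed lines at 1.5-fold.

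The summed level of each of 8 subunit classes was set between groups in an exact permutation test, two-sided, which cannot go below p = 0.1 with 3 against 3 libraries. All 8 classes overlapped between groups, with exact p from 0.2 for the calcium beta genes to 1.0 for the sodium alpha genes. Adjusted over the 8 classes every exact permutation p was 1.0. The largest log2 ratio of the class means was -0.070, for the 5 gamma genes of the rule. These summed to 96.4 ± 5.57 FPKM in WT and 91.8 ± 3.76 in the libraries labelled Fam69c KO (SD, n = 3 each). Cacng2, Cacng3 and Cacng8 are not in this sum.

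Genes whose products bind or regulate these channels were read beside them. Of 14 sodium channel partners all 14 were tested, and of 18 calcium channel partners 17, with Stac under the filter at 12 to 16 reads. In limma 0 of these 31 passed over all genes. At an unadjusted p under 0.05 there were 2, both lower in the libraries labelled Fam69c KO, where 2.19% of all genes tested lay in that direction. The median log2 fold change was -0.0042 over the sodium and -0.017 over the calcium partners.

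Those 2 genes were Gem and Cacng2. Gem, a small GTP-binding protein that inhibits calcium channels through their beta subunits, read 1.49, 1.70 and 1.68 FPKM in WT and 0.953, 1.10 and 1.45 FPKM in the libraries labelled Fam69c KO. All 3 of the latter lay below all WT libraries, with 68 to 117 reads per library, and its log2 fold change was -0.36 (standard error 0.13, limma adjusted p = 0.999). Gem is induced by neuronal activity. Cacng2, the gene of stargazin and a gamma gene outside the rule, read 19.4, 19.9 and 18.5 FPKM in WT. In the libraries labelled Fam69c KO it read 18.4, 16.3 and 17.3 FPKM, again without overlap. It changed by -0.15 log2 units (standard error 0.059, limma adjusted p = 0.999). Rims2, a presynaptic scaffold gene, was the other partner without overlap. It read 11.635 to 12.182 FPKM in WT and 11.013 to 11.623 FPKM in the libraries labelled Fam69c KO. Its groups thus nearly touched (limma, unadjusted p = 0.173). Without overlap were 3 of 31 partners, all lower in the libraries labelled Fam69c KO, against 4.7% of all genes tested in that direction. Ryr2, a calcium release channel of the endoplasmic reticulum, gave 0.12, and Cabp1, a calmodulin-like channel regulator, -0.14, both with overlapping groups. Calm2, the most abundant calcium partner, read 850 ± 54.8 FPKM in WT and 821 ± 56.1 in the libraries labelled Fam69c KO.

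None of the 14 sodium channel partners was called different between groups. Fgf13, an intracellular factor that binds the alpha tail, read 30.2 ± 1.04 FPKM in WT and 28.4 ± 1.41 in the libraries labelled Fam69c KO, and the adhesion gene Nfasc 21.7 ± 0.726 and 23.0 ± 1.08. Nrcam, another adhesion gene, read 24.1 ± 0.945 and 25.7 ± 1.82 FPKM. Unc79, a subunit gene of the sodium leak channel, gave a log2 fold change of 0.11, and Cntn1, the most abundant of the list, -0.041. The groups overlapped in all 14 genes.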

How the data were processed

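RNA-seq of 3 WT and 3 Fam69c KO cortex libraries was analysed from 1 table of FPKM values deposited by the authors, with gene position and length. The submitters' processing notes name Bowtie, without a version, and mm10. The counting program, annotation release, strand handling and treatment of reads with several matches have no entry and are thus not given in the sources used here. Of the values above 0, 100% were whole multiples of 1 read within 0.001, which gave 30935326 to 35065884 reads per library. All 37 channel genes have the positions of GENCODE M21, and their length is the union of all exons. The values carry a further factor of 0.979 to 1.01 per library against plain FPKM.

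From there, 15694 genes at or above a 6-library mean of 0.5 FPKM were fitted with limma 3.58.1 in R 4.3.3 on log2(FPKM + 0.5), with a variance trend and no covariate, two-sided, adjusted by Benjamini-Hochberg over all genes at a threshold of 0.05. A fold change on this scale is smaller than the true one for low genes. Class sums were tested with scipy 1.17.1. The fit was tested on simulated data. Intervals and read limits cover counting or library spread only.

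Values in every library are given for the 2 most abundant genes of each class (1 in classes under 4), genes at an unadjusted p under 0.05, genes without overlap and the largest changes. Scn1a, Scn4b and Cacna1g were added, and Rims2 named, after their values were seen. The values of 2 channel genes are not reported here; they stay in the fit and in the counts. Partners are the 4 with the smallest p and the most abundant of each list. The channel genes, partners and 11 marker lists were chosen with earlier results of these data known. Figures were drawn with matplotlib 3.10.9. Alternatives covered the pseudocount, filter, scaling, variance model, sample weights, replicate block, striatal covariate, voom, leaving out each library, leaving out a pair, and a gene length trend. The last 2, of which the pair is WT replicate 3 and replicate 1 labelled Fam69c KO, were added after seeing the data.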

Additional observations from a re-analysis of the deposited data

How the results depend on the processing

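Under all 18 alternatives 0 channel genes and 0 partners passed in limma. At an unadjusted p under 0.05 there were 0 to 2 channel genes when 1 library was left out: Cacna1g and Cacng5 without WT replicate 3, and Scn3b without replicate 1 labelled Fam69c KO. With both of these libraries left out there were 3: Scn3b, Cacna1d and Cacna1g. Over all genes, 599 of the 15694 in the main fit lay at an unadjusted p under 0.05. With no filter 1214 did, but of 32400 genes fitted. Over the 15694 genes the count was 1420 with sample weights, 1023 and 901 without either library and 2092 without both. Without both, 1 gene, Gm47283, passed. The causes of the higher counts over the 15694 genes were not tested. The smallest adjusted p of a channel gene under any setting was 0.294. The median log2 fold change of the channel genes ran from -0.017 to 0.039 over all settings.

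No sign of a channel gene's fold change was called, and 21 of 27 turned under at least 1 setting. With sample weights the log2 fold change was 0.036 for Scn2a, 0.0061 for Scn3a, 0.028 for Cacna1a, -0.030 for Cacna2d2, -0.0024 for Cacna2d3, -0.0073 for Cacnb4 and -0.0017 for Cacng4. With WT replicate 3 and replicate 1 labelled Fam69c KO left out together it was 0.024 for Scn2a, -0.0058 for Scn8a, -0.043 for Scn2b, -0.12 for Scn4b, 0.065 for Cacna1a, -0.065 for Cacna2d2, -0.013 for Cacna2d3, -0.086 for Cacnb4 and -0.066 for Cacng4. With the gene length trend removed it was -0.0046 for Scn7a, -0.0056 for Scn8a and -0.0073 for Cacna2d1. Scn7a was -0.0051 with a pseudocount of 0.1, -0.0021 with the striatal covariate and -0.012 with voom, and Cacna1a was 0.015 with TPM scaling.

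Leaving out 1 library at a time, the log2 fold change ran from -0.13 to 0.0053 for Scn1a, -0.082 to 0.013 for Scn2a, -0.18 to 0.027 for Scn3a, -0.13 to 0.068 for Scn7a and -0.00025 to 0.026 for Scn8a. It ran from -0.017 to 0.0998 for Scn2b, -0.019 to 0.17 for Scn3b and -0.23 to 0.32 for Scn4b. Pore genes ran from -0.0052 to 0.14 for Cacna1c, -0.032 to 0.14 for Cacna1d, -0.049 to 0.058 for Cacna1a, -0.015 to 0.069 for Cacna1b, -0.034 to 0.30 for Cacna1g and -0.060 to 0.14 for Cacna1h. Accessory genes ran from -0.045 to 0.055 for Cacna2d1, -0.079 to 0.0998 for Cacna2d2, -0.049 to 0.16 for Cacna2d3, -0.019 to 0.031 for Cacnb1, -0.035 to 0.086 for Cacnb4 and -0.17 to 0.22 for Cacng4. The partner Cntn1 ran from -0.097 to 0.0040. The low end for Scn4b and Cacng4 came without WT replicate 3.

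With the replicate number as a block 0 channel genes passed. In that fit 837 of all genes lay at an unadjusted p under 0.05, against 599 without the block. Deviations of same-numbered libraries correlated at 0.0816, 0.0135 and 0.210. For WT replicates 1 and 3 the same-numbered library correlated best. WT replicate 2 correlated best with replicate 1 labelled Fam69c KO (0.113), and replicate 2 labelled Fam69c KO with WT replicate 1 (0.0496). The labels state no pairing, and the numbers were not taken as one. The 10 genes under the filter, which is set on mean FPKM and not on reads, had at most 156 reads in any library. Depth limits what can be said of those with few reads.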

Other observations

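Channel genes with long models deviated from the mean in some libraries. The median deviation from the 6-library mean of the 14 tested channel genes over 9000 bases was 0.087 log2 units in replicate 2 labelled Fam69c KO and -0.055 in replicate 1. Over all 1746 tested genes of that length these medians were 0.036 and -0.017. The 8 tested channel genes under 5000 bases had medians of 0.0074 and -0.069 in these 2 libraries, so in replicate 1 labelled Fam69c KO both length classes lay below the mean. Replicate 2 labelled Fam69c KO held the highest value of 9 of the 27 tested channel genes, while WT replicate 3 and replicate 1 labelled Fam69c KO held the lowest value of 9 each. The part of gene length in these values was not tested.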
